A study of Saccharomyces cerevisiae with 4 samples.

Results

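The genes described here are the protein-coding and predicted ORFs of chromosome 3 of budding yeast, taken one by one. Members were chosen by name, as ORFs whose systematic name begins with YC, and by a minimum of 15 reads in at least 1 library of each culture pair. Of 177 YC ORFs listed, 22 were set aside by name, among them the mating-type cassettes and several strongly regulated genes such as FUS1 and HSP30. Of the remaining 155, 133 passed the minimum, out of 5680 genes that passed it in the whole genome. Chromosome 3 was singled out for the raised level of its genes in tetraploids in these same libraries. The size of that shift is therefore a description, and the question followed is which genes shared it and which did not.

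Poly(A) RNA was sequenced from 2 tetraploid (MATaaaa) and 2 haploid (MATa) cultures, given as biological replicates. They were of the Σ1278b background, a filament-forming laboratory strain, and were grown to mid-log phase at 30 °C in synthetic complete medium with 2% glucose. Each tetraploid culture forms a pair with the haploid culture of the same letter, A or B. The methods give the tetraploid as isogenic to the haploid and give both the background alleles ura3-52, leu2::hisG and his3::hisG. Each ploidy is 1 strain, so a feature of that strain and an effect of ploidy cannot be told apart. The methods also state that passaging was kept low to avoid aneuploidy in the tetraploid. The study takes the similar level of most transcripts at both ploidies to show that the tetraploid was euploid. Chromosome copy number was not tested here. The libraries held between 3612527 and 4133193 reads on ORFs. LEU2, which lies on this chromosome and is replaced by hisG in the strain, had no row in the files. Every level is a share of its library. RNA per cell was not measured, and less RNA of a gene per cell cannot be told apart from fewer cells making it.

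Chromosome 3 is one of the smaller yeast chromosomes. It carries the MAT locus, which sets the mating type, and the silent cassettes HML and HMR near its ends. Between them lie housekeeping genes of many unrelated pathways, among them ribosome assembly, mitochondrial translation, chromatin remodelling, DNA replication and protein secretion.

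The 133 genes had a median log2 fold change (tetraploid over haploid, from a fit with the culture pair as a block) of 0.26, against 0.01 for all 5680 tested genes. After subtraction of the all-gene median (centered values below), the shift was 0.25, a level 19.0% higher, with 0.27 in A and 0.24 in B. The quartiles of the log2 fold changes were 0.03 and 0.43, their range -0.58 to 1.23, and their SD over genes 0.31. Above the all-gene median were 104 of the 133 genes and below it 29. Taken by pair, 84 genes were above the all-gene median in both pairs, 13 were below it in both, and 36 were above in one pair and below in the other. Of all 5680 tested genes, 1936 were above in both pairs and 1936 below in both. The median standard error of a single gene was 0.17.

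The 20 tested genes among those set aside had a centered median of 0.22, and log2 fold changes from -2.22 (FUS1) to 0.95 (MRPL32). By comparison, 14 of the other chromosomes had centered medians between -0.10 and 0.05, and chromosome 6, with 111 tested genes, had -0.41. The libraries of equal ploidy give a contrast that the choice of the chromosome did not use. Between culture B and culture A, the centered median of the 133 genes was -0.07 in tetraploids and -0.01 in haploids, while the 14 chromosomes ranged from -0.04 to 0.04 in tetraploids and from -0.04 to 0.05 in haploids. The tetraploid value lay outside the range of the 14 chromosomes. It was smaller than the shift between ploidies, but that shift was chosen for its size, so nothing is read from this. Each value at equal ploidy also compares a single library with another.

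**Figure D1:**
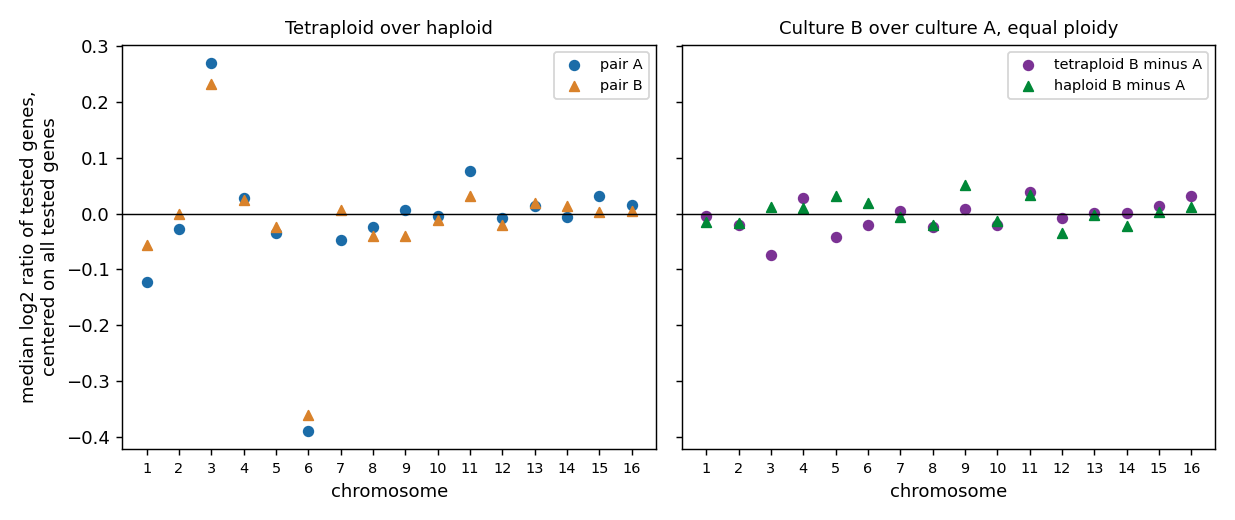
Median log2 ratio of the tested genes of each chromosome, centered on all 5680 tested genes, for tetraploid over haploid in pairs A and B (left) and for culture B over culture A within tetraploids and within haploids (right). Chromosome 3, with 153 tested genes including the 20 set aside, stands at 0.27 and 0.23 on the left, chromosome 6 at -0.39 and -0.36, and on the right chromosome 3 is at -0.07 in tetraploids and 0.01 in haploids.

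Along the chromosome the higher levels covered both arms. The 49 genes of the left arm had a centered median of 0.30, with 40 above the all-gene median, and the 84 genes of the right arm had 0.23, with 64 above. Each arm was also divided into 3 stretches of ORF order. On the left arm these had centered medians of 0.39 (GEX1 to POF1), 0.14 (YCL046W to RNQ1) and 0.32 (HBN1 to RER1), and on the right arm 0.24 (YCP4 to ELO2), 0.24 (RRP43 to CPR4) and 0.17 (IMG2 to AAD3). In running windows of 9 neighbouring genes, 118 of 125 windows had a centered median above 0. The lowest median (-0.01) was shared by 6 successive windows, which together ran from YCL049C to LSB5 and included PDI1. The highest (0.51) was shared by 5 windows that ran from GFD2 to DCC1, and overlapping windows share genes.

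**Figure D2:**
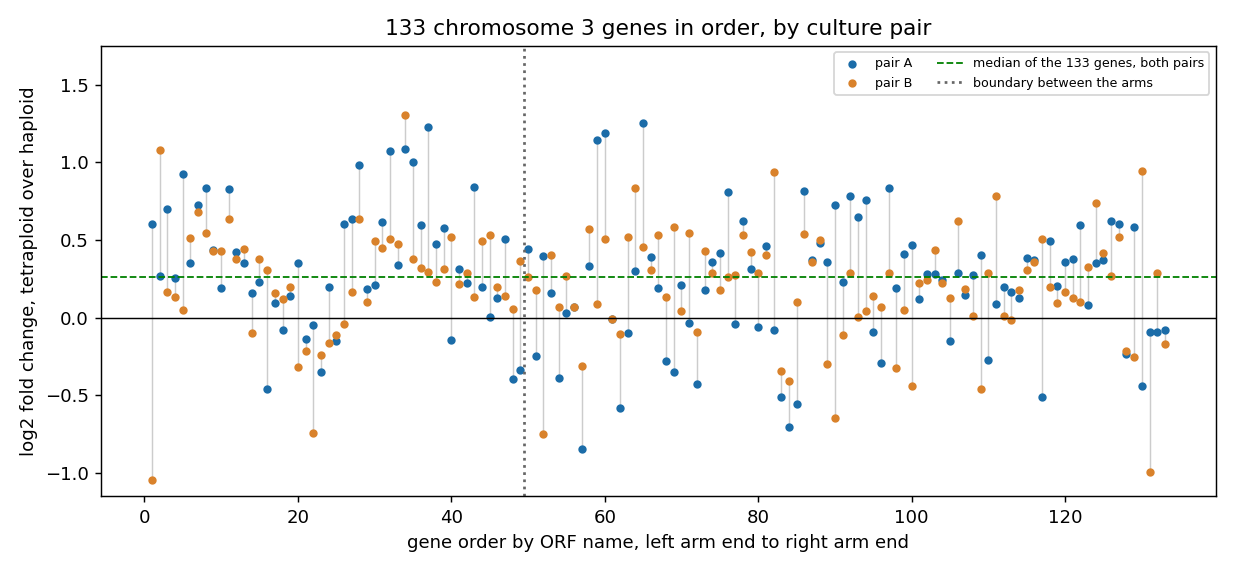
Log2 fold change (tetraploid over haploid) of the 133 genes in ORF order from the left to the right end of chromosome 3, in pair A (blue) and pair B (orange), joined by a grey line for each gene. Both arms lie mostly above 0 around the median of 0.26 (green dashes), and single genes of the 2 pairs differ by a median of 0.29.

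Genes were also ranked by their summed reads in the 4 libraries. The 45 genes with 51 to 335 reads had a centered median of 0.25, the 44 genes with 341 to 760 reads had 0.30, and the 44 genes with 766 to 16923 reads had 0.20. The group with the fewest reads held the 9 genes that reached the minimum of 15 in a pair only through the tetraploid library, and the 2 that did so only through the haploid one, so its median depends in part on that minimum. The standard error fell with depth, with medians of 0.27, 0.17 and 0.14. Of the 133 genes, 108 (81.2%) lay within 2 standard errors of the median of the 133 genes, against 73.6% of all 5680 tested genes around the median of their own chromosome. The fold changes of pair A and pair B correlated at r = 0.21 across the 133 genes and at 0.53 across all tested genes. Genes set aside by name are missing from the 133 but not from all tested genes. The 20 of them that were tested had an SD over genes of 0.77, so both comparisons are of unlike sets. Genes are not independent replicates, and all values share the same 4 libraries.

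Gene by gene, edgeR's quasi-likelihood test, adjusted over all tested genes by Benjamini-Hochberg, called 10 of the 133 genes higher (7.52%) and 1 lower (0.752%) at an adjusted p under 0.05. Of all tested genes it called 2.52% higher and 5.30% lower, 7.82% in either direction. Since the chromosome was chosen on this contrast and genes were set aside from it by name, nothing is read from the difference in shares. In CPM, the reads on an ORF per 1000000 reads on all ORFs after scaling with TMM factors, both tetraploid libraries were above both haploid libraries for 61 genes (45.9%, against 21.9% of all tested genes), both were below for 7 (5.26%, against 20.5%), and 65 overlapped. HBN1 alone of the 133 had a fitted change of at least 2-fold. Without the pair as a block the same test called 0 of the 133 genes, with 15 at an unadjusted p under 0.05, all higher. Among all tested genes that fit called 4 higher and 18 lower. The 0 therefore says little about the 133 genes in particular. Values below for a library left out are centered log2 fold changes from fits without the block and without that library. They are given for each called gene whose value moved by over 1.5 times. Total counts as library sizes moved the median of all genes to 0.30. With them the test called 62 genes higher (46.6%, against 20.6% of all tested genes) and 0 lower (0.00%, against 2.02%).

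**Figure D3:**
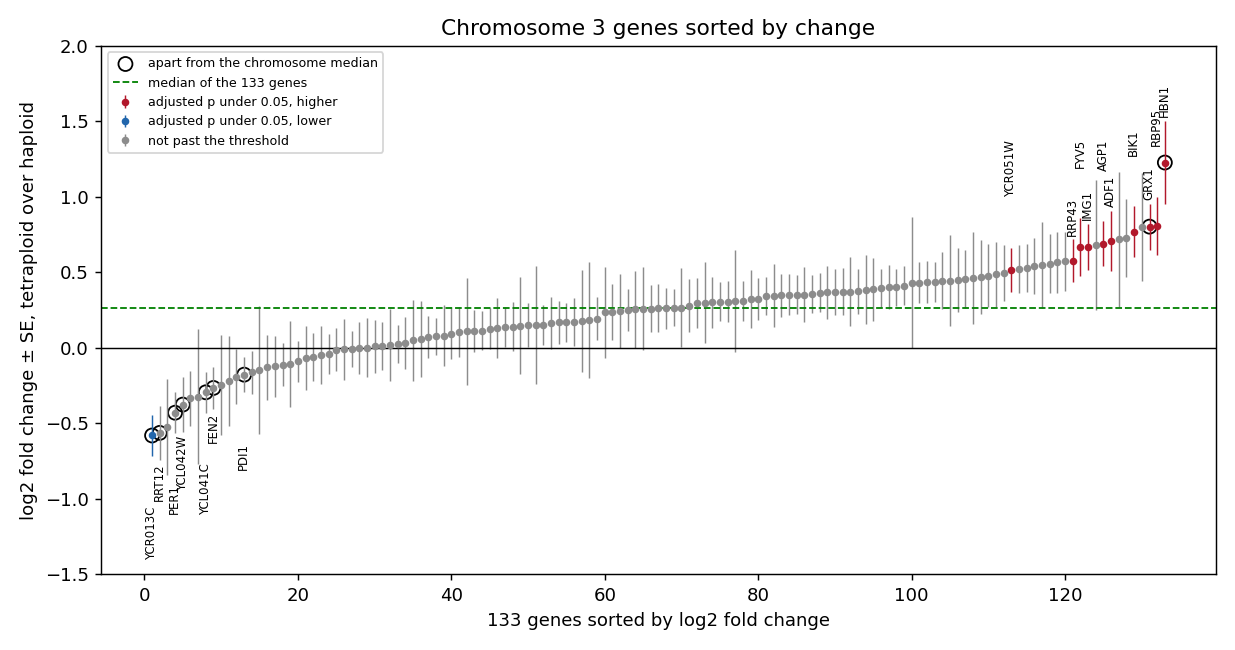
The 133 genes sorted by log2 fold change (tetraploid over haploid), with standard errors from edgeR's fit. Red and blue points were called higher (10 genes) and lower (1 gene) at an adjusted p under 0.05, and circles mark the 9 genes called apart from the median of chromosome 3 (green dashes, 0.26).

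HBN1, which encodes a protein similar to bacterial nitroreductases, had the highest log2 fold change. It had 50 and 65 reads in tetraploids A and B, against 17 and 19 in haploids A and B. The 2 ploidies did not overlap, at 12.7 ± 1.30 CPM in tetraploids and 5.41 ± 0.02 in haploids (SD, n = 2 each). Its log2 fold change was 1.23 (standard error 0.28, edgeR's adjusted p = 0.0142), and the study lists it among its induced genes, a list drawn from these libraries and therefore not independent of them. The study's separate quantitative PCR measurements of HBN1 were not used here. FRM2, its neighbour and close relative, had 5 and 9 reads in tetraploids and 8 and 8 in haploids, too few to be tested.

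GRX1, a cytosolic glutaredoxin that reduces protein disulfides with glutathione, had 237 and 269 reads in tetraploids A and B, against 88 and 127 in haploids A and B. At 56.0 ± 0.37 CPM in tetraploids and 32.1 ± 5.66 in haploids, its log2 fold change was 0.80 (standard error 0.15, edgeR's adjusted p = 0.00424). HBN1 and GRX1 were the only members that exceeded the chromosome's own median in a test of that departure, HBN1 by 0.97 (edgeR's adjusted p = 0.0471) and GRX1 by 0.54 (edgeR's adjusted p = 0.0428). Neither was called in that test without the pair as a block, with total counts as library sizes, or without the minimum of reads.

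AGP1, a broad-range amino acid permease of the plasma membrane, had 850 and 656 reads in tetraploids, against 313 and 371 in haploids. It reached 169 ± 44.3 CPM in tetraploids and 103 ± 3.93 in haploids, with a log2 fold change of 0.69 (standard error 0.15, edgeR's adjusted p = 0.00993). Pair A gave a log2 ratio of 1.00 and pair B one of 0.38, and tetraploid A was above tetraploid B. Without tetraploid A the centered value was 0.41, beside 0.68 from all libraries.

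BIK1, a microtubule plus-end protein, had 206 and 220 reads in tetraploids, against 72 and 114 in haploids, and a log2 fold change of 0.77 (standard error 0.17, edgeR's adjusted p = 0.0128). Both tetraploid cultures were above both haploid cultures, and the haploids differed more (27.7 ± 6.66 CPM) than the tetraploids (47.2 ± 1.72 CPM).

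IMG1, a protein of the large mitochondrial ribosomal subunit, had 201 and 243 reads in tetraploids, against 84 and 123 in haploids. Its log2 fold change was 0.67 (standard error 0.15, edgeR's adjusted p = 0.0154). RBP95, a factor in assembly of the large ribosomal subunit, had 143 and 170 reads in tetraploids, against 46 and 88 in haploids, with a log2 fold change of 0.81 (standard error 0.19, edgeR's adjusted p = 0.0194). RRP43, a subunit of the RNA exosome, had 226 and 311 reads in tetraploids, against 108 and 158 in haploids, with 0.58 (standard error 0.14, edgeR's adjusted p = 0.0216). In all 3 the tetraploids were above the haploids in CPM. The centered value of RBP95 was 0.80 from all libraries, 0.46 without haploid A and 1.20 without haploid B.

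YCR051W, an ankyrin-repeat protein of unknown function, had 300 and 402 reads in tetraploids, against 128 and 242 in haploids, and a log2 fold change of 0.52 (edgeR's adjusted p = 0.0451). Its log2 ratio was 0.79 in A and 0.29 in B, and its centered value, 0.51 from all libraries, was 0.16 without haploid A and 0.89 without haploid B. FYV5 and ADF1 are not independent genes in these counts. In the R64 assembly of another strain they overlap by 342 bases, and reads of both strands were counted. FYV5 had 88 and 157 reads in tetraploids, against 36 and 79 in haploids, and ADF1 had 70 and 138, against 31 and 63. The reads on FYV5 were between 114% and 126% of those on ADF1 in every library, and the log2 fold changes were 0.67 (edgeR's adjusted p = 0.0453) and 0.71 (edgeR's adjusted p = 0.0427). Both ORFs had more reads in the B libraries, and their CPM ranges overlapped between ploidies. Centered values of 0.66 for FYV5 and 0.70 for ADF1 became 0.25 and 0.34 without haploid A, 0.28 and 0.24 without tetraploid B, and 1.19 and 1.17 without haploid B.

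**Figure D4:**
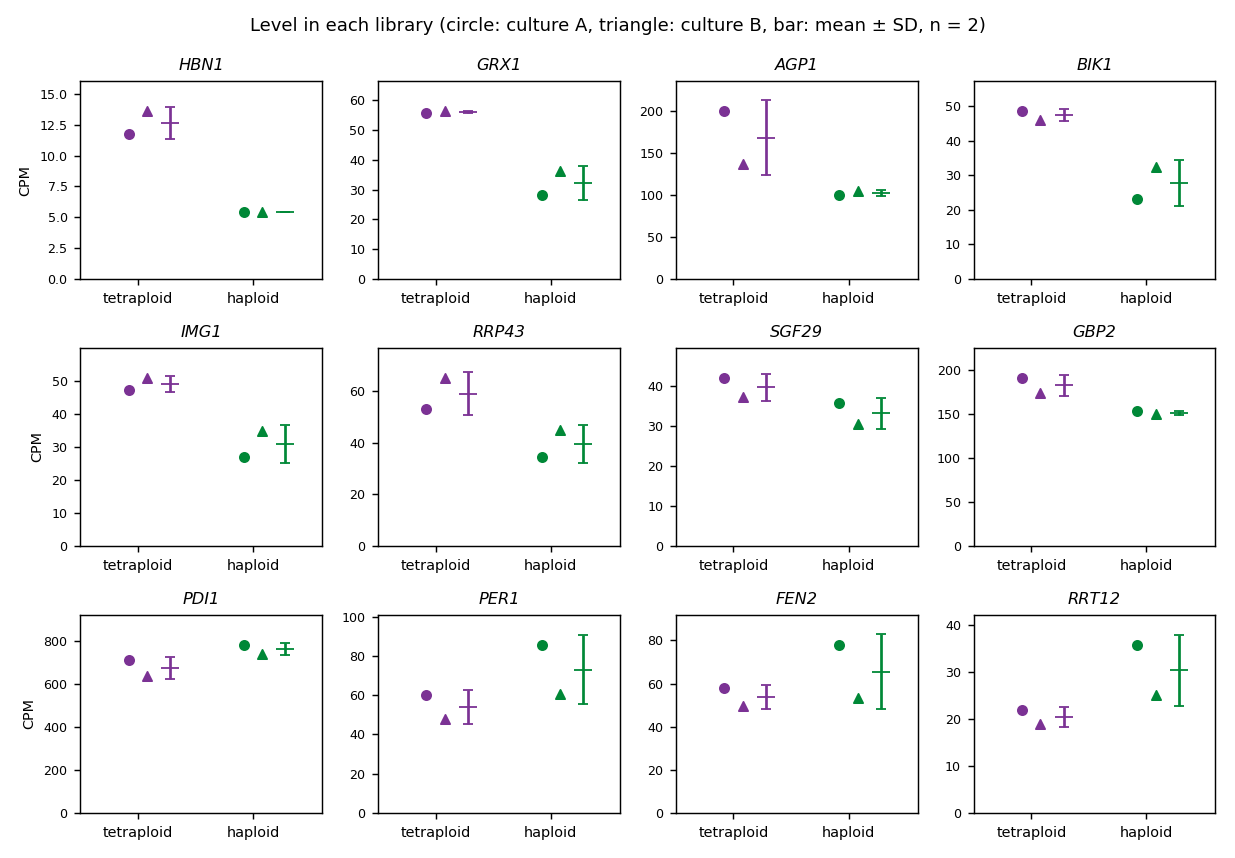
CPM in each library for 12 genes, tetraploids left of haploids, with circles for culture A, triangles for culture B and the mean ± SD (n = 2) beside them; each axis starts at 0. HBN1, GRX1, AGP1, BIK1, IMG1 and RRP43 were called higher, SGF29 and GBP2 lie near the chromosome's median change, and PDI1, PER1, FEN2 and RRT12 were called below it.

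The remaining genes with high fold changes did not pass the threshold. PEX34, a peroxisomal membrane protein on the same list of the study, had 44 and 68 reads in tetraploids, against 18 and 32 in haploids (log2 fold change 0.73, edgeR's adjusted p = 0.0965). HTL1, a subunit of the RSC chromatin remodeller, had 27 and 34 reads in tetraploids, against 8 and 18 in haploids (0.80, edgeR's adjusted p = 0.179). VBA3, a vacuolar transporter of basic amino acids, had 15 and 21 reads in tetraploids, against 9 and 7 in haploids, and YCL022C had 17 and 22, against 5 and 13. These low counts gave VBA3 and YCL022C standard errors of 0.45 and 0.43, beside log2 fold changes of 0.72 and 0.68. In both pairs only the tetraploid library of VBA3 and of YCL022C reached the minimum of 15 reads, and for HTL1 this held in pair A. Their place among the high genes therefore depends in part on that minimum.

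To find genes that did not share the shift, each gene was tested against the median log2 fold change of its own chromosome, 0.26 for chromosome 3, in the same fit. This called 9 of the 133 genes apart (6.77%), 7 below (5.26%, against 5.44% of all tested genes) and 2 above (against 2.13% of all tested genes). In both directions together it called 7.57% of all 5680 tested genes. Without the pair as a block it called 0, with 9 at an unadjusted p under 0.05, and over the other alternatives between 0 and 3. For the other 124 genes no departure passed the threshold, which does not show that they moved alike. The 133 genes leave out those set aside by name, while the shares of all tested genes do not. Of the 20 tested genes set aside, 4 were called below and 1 above. The shares therefore compare unlike sets, and nothing is read from their nearness.

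PDI1, the protein disulfide isomerase of the endoplasmic reticulum, was among the genes below the median. It had 3011 and 3043 reads in tetraploids, against 2444 and 2604 in haploids, which is 672 ± 50.7 CPM in tetraploids and 760 ± 28.2 in haploids. Its log2 fold change of -0.18 was not called against 0 (standard error 0.12, edgeR's adjusted p = 0.373), and lay 0.44 below the chromosome's median (departure -0.44, edgeR's adjusted p = 0.0357). Both tetraploid cultures were below both haploid cultures, and the centered value, -0.19 from all libraries, was -0.10 without tetraploid B.

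PER1, needed to remodel the lipid of glycosylphosphatidylinositol anchors in the endoplasmic reticulum, had 255 and 228 reads in tetraploids, against 268 and 213 in haploids. Its log2 fold change was -0.43, and its departure from the chromosome's median -0.69 (edgeR's adjusted p = 0.00558). Its neighbour RRT12, a subtilisin-like protease known from the spore wall, had 93 and 90 reads in tetraploids, against 112 and 88 in haploids. RRT12 had a log2 fold change of -0.56 and a departure of -0.83 (edgeR's adjusted p = 0.0122). The centered value of PER1, -0.44 from all libraries, was -0.18 without haploid A, -0.28 without tetraploid B and -0.70 without haploid B. That of RRT12, -0.57 from all libraries, was -0.31 without haploid A. IMG1, separated from RRT12 only by YCR045W-A in ORF order, was among the genes called higher. YCR045W-A had 24 and 25 reads in tetraploids, against 26 and 17 in haploids (-0.24, standard error 0.33).

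FEN2, the pantothenate transporter of the plasma membrane, had 246 and 238 reads in tetraploids, against 244 and 187 in haploids. It was at 53.8 ± 5.71 CPM in tetraploids and 65.5 ± 17.5 in haploids, and these ranges overlapped. The departure was -0.53 (edgeR's adjusted p = 0.0356) from a log2 fold change of -0.27. Its centered value, -0.28 from all libraries, was 0.00623 without haploid A, -0.17 without tetraploid B and -0.56 without haploid B.

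YCL042W and YCL041C lie between PDI1 and the glucokinase gene GLK1 by name, which makes 3 ORFs called below in a row with PDI1. YCL042W had 158 and 104 reads in tetraploids, against 120 and 128 in haploids, and a departure of -0.64 (edgeR's adjusted p = 0.0463). Its log2 ratio was -0.04 in A and -0.74 in B, and its CPM overlapped between ploidies. The centered value, -0.39 from all libraries, was -1.9e-05 without tetraploid B and -0.79 without tetraploid A, so the low value rested on tetraploid B. YCL041C, which has no entry in R64, had 220 and 236, against 207 and 205, and a departure of -0.56 (edgeR's adjusted p = 0.0229). In R64 YCL042W overlaps GLK1 by 106 bases, so that it can share reads with it. GLK1, one of the genes set aside, had a log2 fold change of -0.52 (edgeR's adjusted p = 0.0166).

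YCR013C was the only member called lower and had the most reads of all 133. It had 4443 and 3446 reads in tetraploids, against 5880 and 3154 in haploids, with a log2 fold change of -0.58 (standard error 0.14, edgeR's adjusted p = 0.0180) and a departure of -0.84 (edgeR's adjusted p = 0.00154). This ORF has no entry in R64 and is known in the reference strain to lie on the strand opposite PGK1, the phosphoglycerate kinase gene. PGK1 was set aside and had 12199 and 9471 reads in tetraploids, against 14930 and 8735 in haploids. In every library the reads on YCR013C were between 36.1% and 39.4% of those on PGK1, and PGK1 had a log2 fold change of -0.53 (edgeR's adjusted p = 0.0276). The CPM of YCR013C overlapped between ploidies, with haploid A highest and haploid B between the tetraploids. Its log2 ratio was -0.84 in A and -0.31 in B. Its centered value, -0.59 from all libraries, was -0.033 without haploid A, -0.96 without tetraploid A and -1.12 without haploid B. The size of the drop therefore depended on haploid A, though pair B, which does not hold that library, was also lower. Without strand, reads of the 2 ORFs cannot be told apart. Of the 10 members with no entry in R64, 6 were above the all-gene median, and their centered median was 0.05, against 0.26 for the other 123.

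Other genes with low values did not pass either test. ADH7, an alcohol dehydrogenase near the right end, had 32 and 21 reads in tetraploids, against 25 and 31 in haploids (log2 fold change -0.52, standard error 0.32). SRD1, which takes part in processing of ribosomal RNA, had 94 and 130, against 104 and 103 (-0.34, standard error 0.18). GEX1, a glutathione exchanger near the left end, had 17 and 13 reads in tetraploids, against 8 and 20 in haploids, and its direction differed between pairs, with 0.60 in A and -1.04 in B. GEX1 has a near-identical copy on another chromosome, GEX2, so the origin of its reads is uncertain.

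Genes nearest to the median of the 133 show what the typical shift looked like in the counts. SGF29, a subunit of the SAGA histone acetyltransferase complex, had 178 and 178 reads in tetraploids, against 112 and 107 in haploids, or 39.6 ± 3.28 CPM in tetraploids and 33.1 ± 3.77 in haploids. GBP2, an mRNA-binding protein of nuclear export, had 811 and 833 reads in tetraploids, against 480 and 528 in haploids, or 183 ± 11.7 CPM in tetraploids and 152 ± 2.21 in haploids. Both ploidies were separate for these genes, and with log2 fold changes of 0.26 and 0.27 neither was called (edgeR's adjusted p = 0.316 and 0.188). SRO9, an RNA-binding protein with a La motif, had the same log2 fold change of 0.26 from 272 and 284 reads in tetraploids, against 132 and 215 in haploids, but with 0.60 in A and -0.04 in B. RAD18, a ubiquitin ligase of DNA damage tolerance, had 30 and 63 reads in tetraploids, against 18 and 39 in haploids, and MAK32 had 33 and 59, against 26 and 30. For both the CPM ranges overlapped. YCR087W had 293 and 297 reads in tetraploids, against 168 and 195 in haploids, between 102% and 106% of those on YCR087C-A in every library.

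The members were also grouped by role. The groups also differed between cultures of equal ploidy. Culture B over culture A had centered medians of 0.21 in tetraploids and 0.47 in haploids for DNA replication, repair and segregation, 0.30 and 0.36 for ribosome biogenesis, -0.19 and -0.52 for the endoplasmic reticulum and lipid group, and -0.36 and -0.36 for plasma membrane transporters. These differences were as large as those between the groups' ploidy shifts, and their part in the order of the groups was not tested. Genes of DNA replication, repair and chromosome segregation had the highest centered median, 0.44, with 7 of 7 above and 1 called higher (BIK1). In this group CSM1, a monopolin subunit that acts at kinetochores, had the lowest log2 fold change (0.15, standard error 0.32). With 19 reads in tetraploid A and 12 in haploid A, CSM1 reached the minimum in pair A only through the tetraploid library. The 9 genes of ribosome biogenesis had a centered median of 0.39, with 8 above and 2 called higher (RBP95 and RRP43). SPB1, a methyltransferase for the large subunit, had 605 and 993 reads in tetraploids, against 332 and 562 in haploids (0.40, edgeR's adjusted p = 0.0570), and SRD1 was the exception below 0.

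Of the 11 mitochondrial proteins 10 were above the all-gene median, with a centered median of 0.34 and 1 called higher (IMG1). NFS1, the cysteine desulfurase of iron-sulfur cluster synthesis, had 465 and 447 reads in tetraploids, against 247 and 280 in haploids, with a log2 fold change of 0.35 that was not called. MGR1, an adaptor of the inner-membrane i-AAA protease, stood at 0.00 (standard error 0.20).

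All 11 chromatin and transcription genes were above the all-gene median, with a centered median of 0.34, but none was called. They ran from 0.08 for RDS1, a zinc-cluster protein, to 0.80 for HTL1, which in pair A reached the minimum of reads only through the tetraploid library. TUP1, the general corepressor, had the most reads of this group, 829 and 959 in tetraploids against 433 and 615 in haploids, with a log2 fold change of 0.34 (edgeR's adjusted p = 0.104). The 5 genes of RNA binding and mRNA turnover were all above the all-gene median as well (centered median 0.25, with 0.41 in A and 0.05 in B), from 0.08 for the decapping activator PAT1 to 0.37 for GFD2.

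Secretory and membrane genes lay lower. The 12 genes of the endoplasmic reticulum, lipid synthesis and secretion had a centered median of 0.05, with 8 above the all-gene median, and PDI1 and PER1 were called below the chromosome's median. At the upper end of this group, CDC50, a subunit of lipid flippases, had 0.45 (standard error 0.30). The 8 tested plasma membrane transporters and regulators had a centered median of -0.02, with 4 above and 4 below, from GEX1 at -0.32 to AGP1 at 0.69. ADY2, an acetate transporter, was in this group but had 10 and 5 reads in tetraploids and 3 and 7 in haploids, under the minimum.

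Between these groups stood the 9 genes of vacuole, endosome and autophagy (centered median 0.27, with 7 above), the 7 protein kinases and endocytosis proteins (0.14, with 6 above) and the 9 tested metabolic and redox enzymes (0.30, with 6 above, HBN1 and GRX1 called higher). VAC17, which attaches vacuoles to myosin for their inheritance, had 222 and 240 reads in tetraploids, against 137 and 161 in haploids (log2 fold change 0.19), and ATG22, a vacuolar amino acid exporter, stood at -0.13. Among the kinases KCC4, which sits at the septin ring, had 0.46 and SAT4, a regulator of potassium transport, had -0.16, while the amphiphysin-like RVS161 had 0.15. CIT2, the peroxisomal citrate synthase, had 1088 and 660 reads in tetraploids, against 950 and 429 in haploids. Its cultures differed more than its ploidies, and its log2 fold change was -0.04. YCR024C-B was similar, with 1074 and 796 reads in tetraploids, against 1009 and 390 in haploids (0.09). The other 45 genes, on no list, had a centered median of 0.17, with 32 above.

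**Figure D5:**
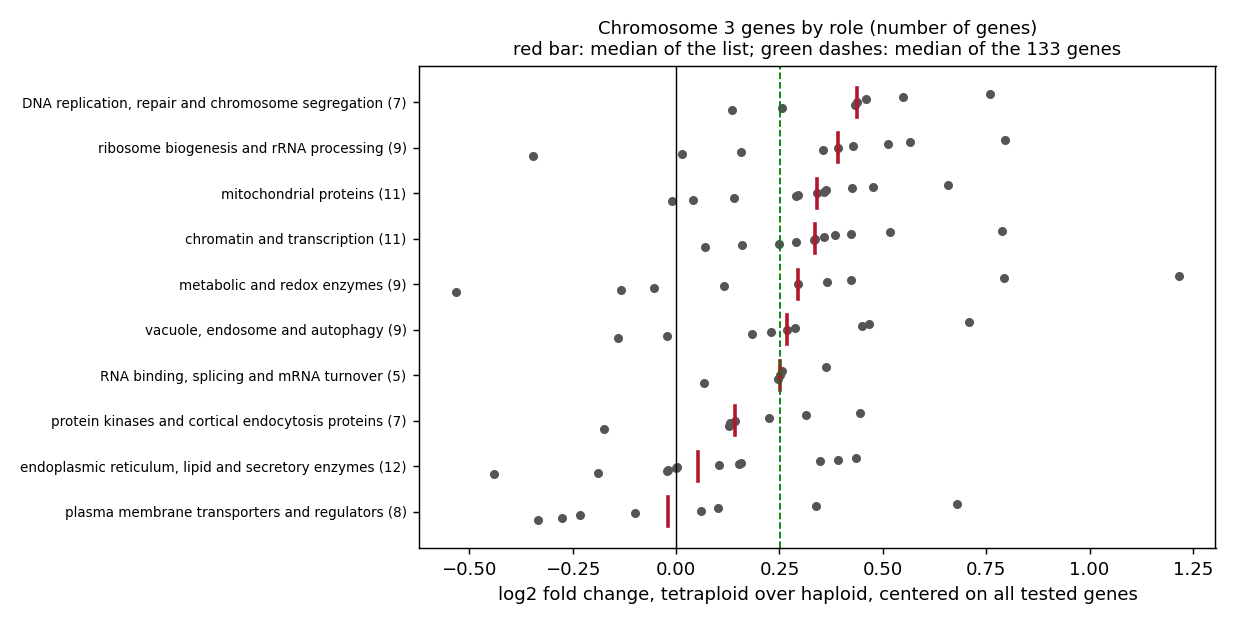
Log2 fold change (tetraploid over haploid, centered on all tested genes) of the chromosome 3 genes in 10 groups by role, 1 point per gene, with the median of each group in red and that of the 133 genes as green dashes at 0.25. Medians range from 0.44 for DNA replication, repair and segregation to -0.02 for plasma membrane transporters.

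Endoplasmic reticulum, plasma membrane and vacuole had the 3 lowest medians of 7 compartments on chromosome 3 and also on 14 other chromosomes, a comparison chosen after seeing the data. Compartments were taken from the Gene Ontology terms in the R64 annotation, and a gene can have several. Endoplasmic reticulum genes had a centered median of 0.13 on chromosome 3 (12 members) and -0.20 on those 14 (491 genes), leaving aside chromosome 6. For the plasma membrane it was -0.02 (9 members) and -0.17 (331 genes), and for the vacuole -0.01 (8 members) and -0.22 (220 genes). The low vacuole value on chromosome 3 depended on the list. The 9 genes grouped by role under vacuole, endosome and autophagy had 0.27. Nuclear genes had 0.36 (31 members) and 0.04 (1274 genes), nucleolar genes 0.37 (10 members) and 0.12 (210 genes), and mitochondrial genes 0.30 (19 members) and 0.06 (971 genes). Cytoplasmic genes had 0.31 (32 members) and 0.00 (1406 genes). In each of these 7 compartments the genes of chromosome 3 were above those of the other chromosomes, by 0.15 to 0.33. Since the chromosome was chosen for its rise in this same contrast, nothing is read from that.

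The minimum of 15 reads decided which low genes were described. For 9 members, only the tetraploid library of a pair reached it, and for 2 only the haploid library of a pair. Just inside the minimum, CHA1, the serine deaminase of serine and threonine use, had 16 and 17 reads in tetraploids and 7 and 11 in haploids. Just outside it, YCL068C had 14 and 26 reads in tetraploids and 12 and 18 in haploids, and PET18 had 23 and 14 in tetraploids and 9 and 13 in haploids. The reads of the 133 genes per library ranged from 5 to 5880, with a median of 120.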

How the data were processed

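Bowtie was used by the authors to align 36-cycle reads to the genome of Σ1278b, and unique mappings for differential expression. They deposited whole-number read counts per ORF for each of the 4 libraries, without normalization. Their methods count both strands. MATALPHA2 and HMLALPHA2 had the same count in every library, so it is unsure whether the deposited counts hold unique mappings only. An ORF that was not listed in a library was taken as 0. Counts were compared here with edgeR 4.0.16 (limma 3.58.1, R 4.3.3): TMM factors, a minimum of 15 reads in 1 or both libraries of each of the pairs, and the quasi-likelihood test with the culture pair as a block, because the study compares its libraries within pairs. Same-letter libraries deviated together (r = 0.53 across genes for the A minus B difference of tetraploids and of haploids). A standard error is the log2 fold change divided by the square root of F. For the departure test, the median of each chromosome was entered as an offset of the tetraploid libraries. Ratios within a pair used counts plus 0.5. Both fits were run on simulated data in which the libraries of a pair deviated together, as the block assumes. Data without that structure were not simulated. Members and lists were chosen with earlier results of these data known. Named genes are those called in either test, the 10 highest and 10 lowest, the 6 with the most reads, the 6 nearest the median, the study's listed genes and examples of each list; FRM2, ADY2, CHA1, YCL068C and PET18 were added after their values were seen, and genes set aside are named only where a result turns on them. R64, used for names and neighbours, has an entry for 123 of the 133 genes. DESeq2 1.42.0, no replicate block, total counts, other filters and omission of each library were alternatives.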

Additional observations from a re-analysis of the deposited data

How the results depend on the processing

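The centered median of the 133 genes kept its direction under every alternative run, between 0.21 and 0.27, also in each pair alone, an alternative chosen after seeing the data. Calls of single genes did not hold in the same way. Without the replicate block, 0 of the 133 genes were called higher, 0 lower and 0 apart from the chromosome's median. DESeq2 called 1 higher, 1 lower and 2 apart, with no adjusted p for 78 of the 133 genes. Total counts gave 62, 0 and 3. Requiring 100 reads in all 4 libraries left 55 genes, with 45 above the all-gene median and 2 higher, 0 lower and 2 apart. With no filter it was 0, 0 and 1. Over all genes of each fit, calls changed as well, from 143 higher and 301 lower in the main fit. They were 4 and 18 without the block, 23 and 133 with DESeq2, and 1170 and 115 with total counts. With 100 reads they were 52 and 123, and with no filter 12 and 87. The losses were therefore not particular to the 133 genes. The number above the all-gene median was 90 to 110 with a library left out. Omitting each library in turn, without the block since 3 libraries leave no residual degree of freedom with it, gave 0 higher, 0 lower and 0 to 1 apart, and the lone library of a ploidy was assumed to vary like the other ploidy's. The cause of these losses was not tested. The centered log2 fold change turned its sign without haploid A for FEN2 (0.00623), YCR045W-A (0.16), CIT2 (0.68), RAD18 (-0.13), CSM1 (-0.25), ATG22 (0.20) and SAT4 (0.0332). It did so without haploid B for GEX1 (0.35), YCR024C-B (-0.65), MGR1 (0.21) and RDS1 (-0.32), without tetraploid A for YCR024C-B (-0.39) and RDS1 (-0.17), and without tetraploid B for CIT2 (0.27), MAK32 (-0.11), RAD18 (-0.26), MGR1 (0.13), CSM1 (-0.33) and ATG22 (0.15). It also turned for CIT2 with the stricter filter (0.0128), for YCR024C-B without the replicate block (-0.053) and for MGR1 with no filter (0.00592). With 2 cultures per ploidy and a median standard error of 0.17, a shift of 0.25 is not detectable in most single genes.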
